A study of Mus musculus with 48 samples.

Results

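Imprinted genes are transcribed mainly from the copy inherited from 1 parent. The 8 followed here, in RNA recovered with Tnrc6a, are H19, Igf2, Igf2r, Grb10, Meg3, Mest, Peg3 and Peg10. They are 8 of the 20171 genes of the deposited count table, and all 8 passed the filter on low counts in every comparison. H19 was selected on its measured recovery with Tnrc6a in these same libraries, so its enrichment over untagged cells, and the parts that make up that value (untagged IP against input, and HA-Tnrc6a against untagged inputs), are given as a description without a test. The other 7 were chosen by their imprinted status for comparison with it, with earlier results of these data known.

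Tnrc6a is a mouse GW182 protein. It binds Argonaute proteins loaded with microRNAs and brings in the enzymes that repress and shorten messenger RNAs. H19 is a long noncoding RNA expressed from the maternal copy and the host of a microRNA, and Igf2 is its paternally expressed neighbour, which encodes a fetal growth factor. Imprinted genes are read from one parental copy because methylation marks set in the germ line persist, and these marks are known to be unstable in cultured embryonic stem cells. Counts do not separate parental copies, so imprinting itself was not measured.

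The cells were mouse embryonic stem cells of 129S6/SvEvTac origin, grown on gelatin with LIF. All 4 genotypes carry the GFP_5xT71BS reporter and a stably transfected FLAG-Cas9 with blasticidin resistance. Untagged cells carry nothing else that the labels name, HA-Tnrc6a cells carry an HA-AVI tag on Tnrc6a, and the remaining lines are tagged cells labelled Ago2-/- or Upf1-/-. RNA was sequenced from lysates (input) and from what anti-HA magnetic beads recovered from them (immunoprecipitate, IP). The 48 libraries form 16 groups of 3, from 4 genotypes, input and IP, and experiments 3 and 4. Dishes were grown in triplicate, but the labels do not say how many clones each line comes from, so p-values measure the spread between these dishes.

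Library totals were 15383953 to 19595405 counts for inputs and 11471544 to 18344233 for IPs of experiment 3, and 26458831 to 37179105 and 25724085 to 73845953 in experiment 4. Levels are given as CPM (counts scaled to a common library total) after TMM scaling. The 8 pluripotent stem cell markers were all expressed, with a summed level of 5803 to 6909 CPM in the inputs. The Ago2 transcript was lower in Ago2-/- than in HA-Tnrc6a inputs in both experiments (92.8 to 97.1 CPM against 205 to 210 in experiment 3, 124 to 136 against 303 to 323 in experiment 4). The Upf1 transcript was not lower in cells labelled Upf1-/-, at 122 to 124 CPM against 74.4 to 83.3 CPM in HA-Tnrc6a inputs of experiment 3, so the counts do not check that label. Among the experiment 3 inputs of HA-Tnrc6a cells, replicate 3 stood apart from replicates 1 and 2, with a chi-square per degree of freedom of 34.3 and 28.9 against 2.66 between the other pair. Among the other inputs, replicate 1 of untagged cells in experiment 3 was at 10.7 and 9.48 against 1.96. IP replicates differed more, the furthest being replicate 1 of the Upf1-/- labelled IPs of experiment 4, at 26.3 and 36.2 against 4.69. Calls lost without the HA-Tnrc6a input or the untagged input are given with the value without it, and no call among the 8 genes was lost without that IP.

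Several of the 8 genes have microRNAs within their span. Only positions were compared, so whether each microRNA lies in the spliced RNA was not tested. RefSeq places 9 mature microRNAs inside H19, Igf2, Meg3 and Mest on GRCm38.p6, and no 2 of the 9 share a seed (bases 2 to 8, in capitals). Those of the most strongly recovered hosts, H19 and Igf2, and those of Meg3, a noncoding host that was recovered less than in untagged cells, are shown for comparison.
mmu-miR-675-5p in H19: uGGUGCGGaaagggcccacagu
mmu-miR-675-3p in H19: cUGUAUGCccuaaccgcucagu
mmu-miR-483-5p in Igf2: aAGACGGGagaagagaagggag
mmu-miR-483-3p in Igf2: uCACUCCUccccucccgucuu
mmu-miR-770-5p in Meg3: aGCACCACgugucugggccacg
mmu-miR-770-3p in Meg3: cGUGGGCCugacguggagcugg
mmu-miR-1906 in Meg3: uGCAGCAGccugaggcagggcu
The libraries measured long RNA, so they hold no value for the mature microRNAs.

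H19, Peg3 and Igf2 were scarce in the inputs. Per kilobase of counted gene length, the median input level over 24 libraries was 37.0 CPM for Peg10, 32.3 for Grb10, 13.1 for Meg3, 7.89 for Mest, 5.70 for Igf2r, 1.61 for H19, 1.31 for Peg3 and 0.821 for Igf2. The ranges over libraries overlapped between every pair of neighbours in this order. H19 had the widest range relative to its level, 0.610 to 6.52 CPM per kilobase. Levels also differed between experiments. Mean input levels of H19 were 2.15 to 4.59 times higher in experiment 3 than in experiment 4 across the genotypes, whereas those of Peg10 were 2.02 to 3.44 times and those of Grb10 1.44 to 2.02 times higher in experiment 4. All comparisons were therefore formed within each experiment and then averaged.

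**Figure D1:**
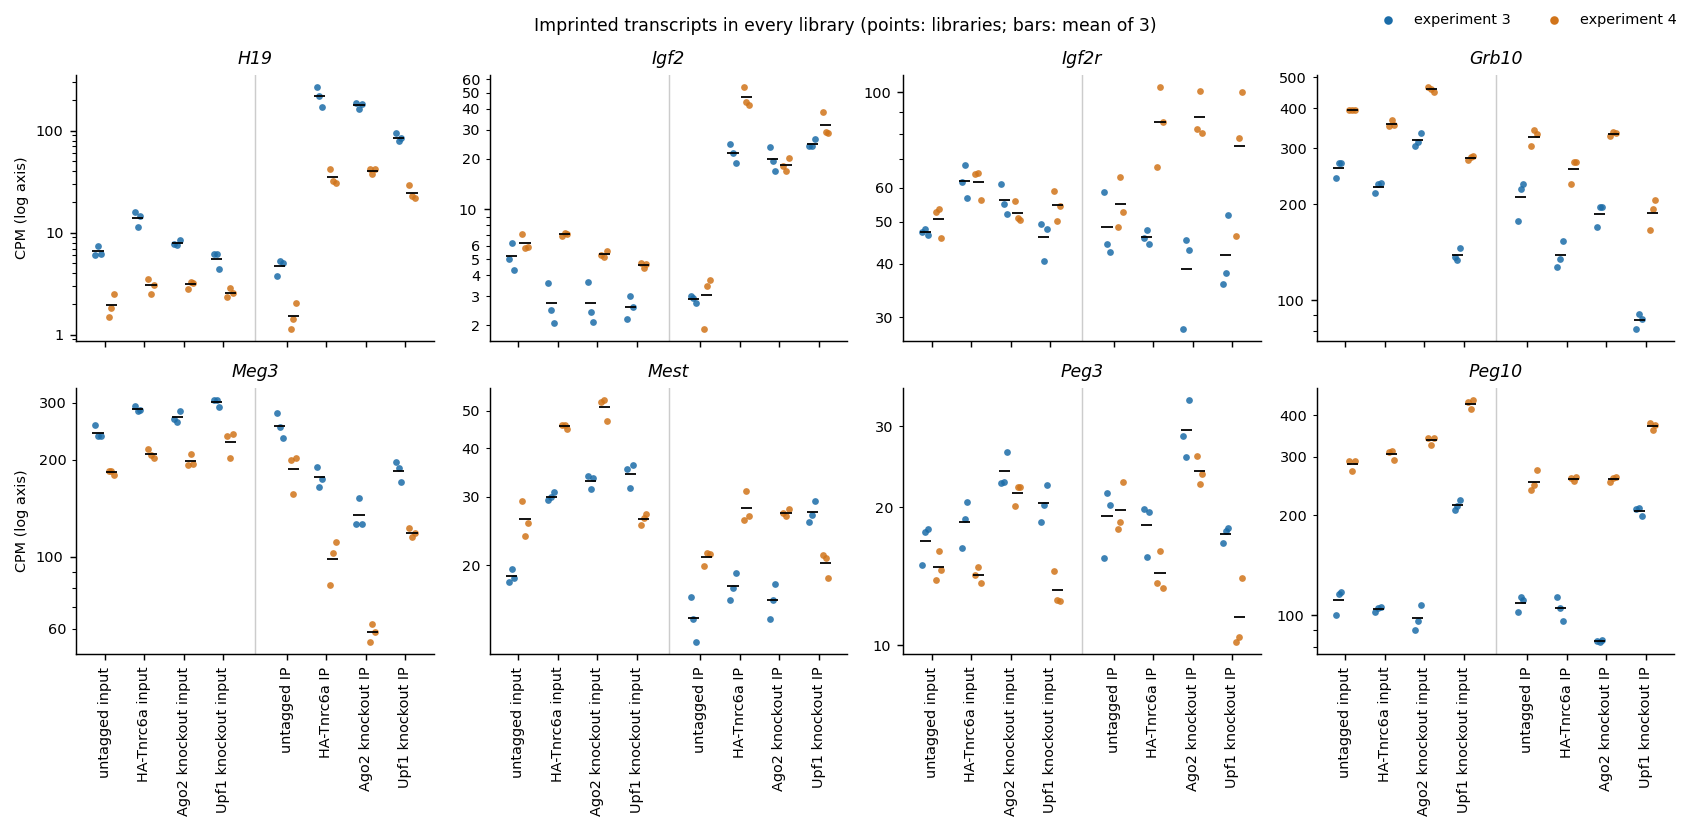
Level of each of the 8 imprinted transcripts (CPM, log axis) in every library, with inputs on the left and IPs on the right of each panel, by genotype and experiment; points are libraries and bars the mean of 3. H19 and Igf2 rise from the inputs to the IPs of the 3 tagged genotypes and not of untagged cells, while the other 6 stay near or below their inputs or move in 1 experiment.

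H19 (ENSMUSG00000000031) lies at chr7:142575530-142578146 of GRCm38.p6. In experiment 3, the HA-Tnrc6a inputs held 16.04, 11.4 and 14.5 CPM and the IPs 270.3, 217 and 169 CPM. The untagged inputs held 6.09, 7.37 and 6.25 CPM and the untagged IPs 3.77, 5.29 and 5.02 CPM. Every HA-Tnrc6a IP was above every input and every untagged IP, and the untagged IPs were below their inputs. Levels were lower in experiment 4, with HA-Tnrc6a inputs at 3.56, 2.53 and 3.07 CPM and IPs at 42.2, 31.9 and 30.5 CPM, while untagged inputs gave 1.501, 1.85 and 2.53 CPM and untagged IPs 1.15, 1.41 and 2.05 CPM. The tagged IPs were again above all of these, and the untagged IPs overlapped their inputs. The IP-to-input ratio of H19 was 15.6 and 11.4 in HA-Tnrc6a cells, and 0.715 and 0.784 in untagged cells (experiments 3 and 4).

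Enrichment is the log2 IP-to-input ratio of a tagged genotype less that of untagged cells. For H19 it was 4.19 ± 0.24 (SE) in HA-Tnrc6a cells, an 18.2-fold difference that placed it at rank 110 of 19993 genes tested. The value was 4.45 in experiment 3 and 3.93 in experiment 4, and 5.05 when IPs were compared without inputs. It was 4.55 ± 0.15 in Ago2-/- cells and 4.11 ± 0.18 in cells labelled Upf1-/-. These 3 comparisons share the untagged libraries. The Tnrc6a transcript itself was at 34244, 26128 and 19271 CPM in the HA-Tnrc6a IPs of experiment 3, the same order of replicates as H19. In experiment 4 it was at 12657, 8841 and 10555 CPM, where replicate 1 was again the highest for both and the order of the other 2 differed. Its part in the H19 values was not tested.

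Igf2 (ENSMUSG00000048583) lies at chr7:142650768-142666816, 72.6 kb from H19. It encodes insulin-like growth factor 2. The HA-Tnrc6a inputs of experiment 3 held 3.60, 2.49 and 2.06 CPM and the IPs 24.6, 21.8 and 18.8 CPM. In experiment 4 the inputs were at 6.87, 7.15 and 7.13 CPM and the IPs at 54.3, 44.0 and 42.2 CPM. Untagged IPs were at 1.91 to 3.75 CPM over both experiments, so every tagged IP was higher than every untagged one. Enrichment of Igf2 was 3.84 ± 0.19 in HA-Tnrc6a cells (14.3-fold, rank 177, edgeR quasi-likelihood test with Benjamini-Hochberg adjustment, adjusted p = 1.44e-18). It was 3.85 in experiment 3 and 3.83 in experiment 4. In Ago2-/- cells it was 3.29 ± 0.19 (adjusted p = 2.52e-17) and in cells labelled Upf1-/- 4.06 ± 0.17 (adjusted p = 5.9e-21, both by edgeR).

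No protein-coding neighbour of the pair passed the test with a higher recovery than from untagged cells. Among the genes tested within 200 kb of H19 or Igf2, the mitochondrial ribosomal protein gene Mrpl23 was recovered less than in untagged cells, at -0.90 ± 0.11 (edgeR adjusted p = 1.6e-08), as was the lysosomal protease gene Ctsd, at -0.72 ± 0.19 (adjusted p = 0.00277). Lsp1, Gm33148 and Gm7290 did not pass the test, with values of -0.06, -0.53 and -0.29. The Lsp1 value joins 1.10 in experiment 3 and -1.22 in experiment 4. Igf2os, which overlaps Igf2, was at 1.99 ± 0.69 (adjusted p = 0.0121). Mir675, which lies inside H19 and so falls under its selection, was at 4.31 ± 1.35, given without a test. Mean log2 CPM was -1.42 for Lsp1, -0.93 for Gm33148, -0.98 for Gm7290, -1.35 for Igf2os and -1.20 for Mir675. The values of these genes therefore rest on few reads. Whether counting used strand is not given in the sources used here, so reads of Igf2os and Igf2 may not be separated, and reads of Mir675 may be those of H19.

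Of the 7 genes other than H19, 5 passed the test in HA-Tnrc6a cells (adjusted p under 0.05), 1 higher and 4 lower. Over all genes tested, 62.0% passed, 29.8% higher and 32.2% lower, so a share of this size is common in the table. Without the HA-Tnrc6a input that stood apart 4 of 7 passed. In Ago2-/- cells 5 of 7 passed (1 higher, 4 lower) against 64.7% of all genes (31.5% higher, 33.2% lower). In cells labelled Upf1-/- 4 of 7 passed (1 higher, 3 lower) against 63.6% of all genes (31.8% higher, 31.8% lower). Igf2 was the 1 higher gene each time. With library totals in place of TMM, the split over all genes for cells labelled Upf1-/- was 4975 higher and 8694 lower, against 6338 and 6326.

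**Figure D2:**
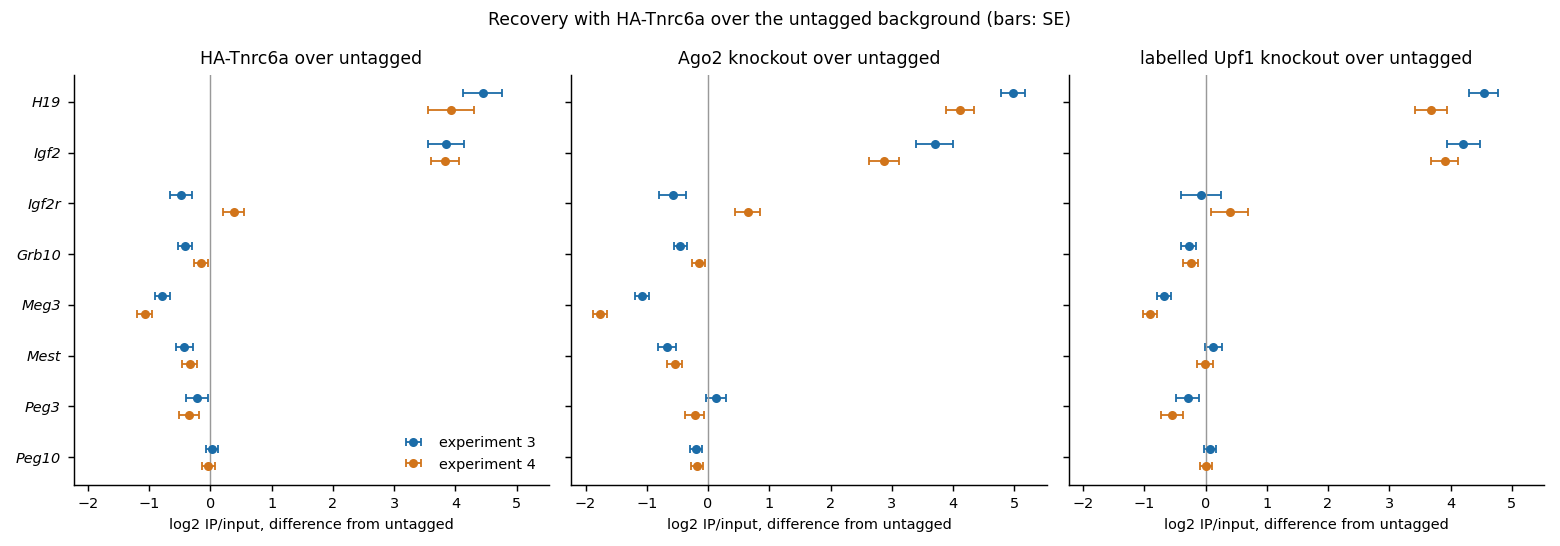
Log2 IP-to-input ratio of each tagged genotype less that of untagged cells for the 8 transcripts (x axis), in experiment 3 (blue) and experiment 4 (orange); bars are SE. H19 and Igf2 lie between 2.87 and 4.98 in all 3 tagged genotypes, Meg3 lies between -1.76 and -0.67, and the others lie within 0.67 of 0.

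Meg3 (ENSMUSG00000021268, chr12:109540996-109571729) is a maternally expressed long noncoding RNA of the Dlk1-Dio3 cluster. It was recovered less with tagged Tnrc6a than from untagged cells in all 3 tagged genotypes. In experiment 4 the HA-Tnrc6a IPs held 81.7, 103 and 112 CPM and the untagged IPs 200, 157 and 203 CPM, without overlap, while the inputs were at 202 to 216 and 179 to 184 CPM. In experiment 3 the IPs were at 190, 165 and 174 CPM against 278, 252 and 234 CPM. The difference in log2 ratio was -0.93 ± 0.09 in HA-Tnrc6a cells (edgeR adjusted p = 4.42e-11), -1.42 ± 0.08 in Ago2-/- cells (adjusted p = 4.1e-17) and -0.79 ± 0.08 in cells labelled Upf1-/- (adjusted p = 1.02e-10). The experiments differed for Meg3 in Ago2-/- cells, at -1.07 and -1.76 (adjusted p = 0.00971), a test that 6.15% of all genes passed. Rtl1, Mir770 and Mir1906-1 overlap Meg3 in the annotation, so the assignment of some reads is uncertain.

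Grb10 (ENSMUSG00000020176, chr11:11930499-12037428) encodes an adaptor that inhibits insulin and IGF receptor signalling. It was recovered slightly less than from untagged cells, at -0.29 ± 0.08 in HA-Tnrc6a (edgeR adjusted p = 0.00256), -0.31 ± 0.07 in Ago2-/- (adjusted p = 0.000496) and -0.26 ± 0.08 in Upf1-/- labelled cells (adjusted p = 0.00837). In HA-Tnrc6a cells Grb10 was at -0.42 in experiment 3 (adjusted p = 0.00276) and -0.16 in experiment 4 (adjusted p = 0.261). In Ago2-/- cells it was at -0.46 (adjusted p = 0.000399) and -0.15 (adjusted p = 0.211). In cells labelled Upf1-/- neither experiment passed, at -0.27 and -0.24. The experiments did not differ by the test in any of the 3 genotypes. The Ago2-/- call was lost when IPs were compared without inputs, at -0.02 (adjusted p = 0.784). Igf2r (ENSMUSG00000023830, chr17:12682406-12769706), the receptor that clears Igf2 by carrying it to lysosomes, did not pass the test in any of the 3 genotypes, at -0.05 ± 0.12, 0.04 ± 0.15 and 0.16 ± 0.22 in that order. Its HA-Tnrc6a IPs were at 45.9, 47.8 and 44.4 CPM in experiment 3, below the inputs at 56.7 to 67.9 CPM, and at 66.9, 103 and 85.5 CPM in experiment 4, above the inputs at 56.2 to 65.0 CPM. The HA-Tnrc6a average therefore joins values of -0.48 (edgeR adjusted p = 0.0262) and 0.38 (adjusted p = 0.0639). The average in Ago2-/- cells joins -0.58 in experiment 3 (adjusted p = 0.0332) and 0.65 in experiment 4 (adjusted p = 0.00985). Each of those passed, in opposite directions. Compared without inputs, the Igf2r IPs of HA-Tnrc6a cells were higher than untagged IPs by 0.30 (adjusted p = 0.0204).

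Mest (ENSMUSG00000051855, chr6:30733506-30748466), a paternally expressed gene for an enzyme of the alpha/beta hydrolase fold, gave a ratio that depended on its inputs. HA-Tnrc6a IPs were at 16.3, 17.5 and 19.1 CPM in experiment 3 and untagged IPs at 16.6, 14.5 and 12.7 CPM, while the inputs were at 29.4 to 30.8 and 18.1 to 19.5 CPM. The IPs overlapped and the inputs did not. In experiment 4 neither overlapped, with IPs at 26.2, 31.0 and 26.8 CPM against 20.0, 21.5 and 21.4 CPM and inputs at 44.9 to 46.0 against 23.8 to 29.3 CPM. The log2 ratio was lower than in untagged cells by -0.38 ± 0.09 (edgeR adjusted p = 0.000683), and by -0.61 ± 0.09 in Ago2-/- cells (adjusted p = 7.64e-07). The IPs compared without inputs were instead higher, by 0.37 (adjusted p = 0.000531) and 0.31 (adjusted p = 0.00116). Cells labelled Upf1-/- gave 0.06 ± 0.09 (adjusted p = 0.595), a value whose sign turned with library totals (-0.20).

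Peg3 (ENSMUSG00000002265, chr7:6703892-6730462), a zinc finger protein gene, was at -0.28 ± 0.12 in HA-Tnrc6a cells (edgeR adjusted p = 0.0429). This call was lost in 13 of the 24 fits that left out 1 library, including those without the HA-Tnrc6a input that stood apart (-0.24) and without replicate 1 of the untagged inputs of experiment 3 (-0.25). Peg3 was at -0.42 ± 0.13 in cells labelled Upf1-/- (adjusted p = 0.00414) and at -0.04 ± 0.11 in Ago2-/- cells (adjusted p = 0.749). Peg10 (ENSMUSG00000092035, chr6:4747306-4760517), which derives from a retrotransposon, was at 0.00 ± 0.07 in HA-Tnrc6a cells (adjusted p = 0.962) and at 0.04 ± 0.07 in cells labelled Upf1-/- (adjusted p = 0.618). With library totals the latter was -0.22 and passed the test (adjusted p = 0.00883). Peg10 passed in Ago2-/- cells at -0.19 ± 0.07 (adjusted p = 0.0144). Its HA-Tnrc6a IPs in experiment 3, at 113, 105 and 96.3 CPM, overlapped the inputs at 102 to 106 CPM.

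What the beads recovered without a tag was measured in untagged cells, as IP against input. H19 was at a log2 difference of -0.44 ± 0.16, given without a test. Igf2 was lower in the untagged IPs by -0.96 ± 0.16 (edgeR adjusted p = 5.8e-05). Mest at -0.35 ± 0.08 (adjusted p = 0.00118) and Grb10 at -0.30 ± 0.06 (adjusted p = 0.000336) were lower as well, and Peg3 at 0.29 ± 0.09 was higher (adjusted p = 0.0151). Of the 7 genes other than H19, 4 passed (1 higher, 3 lower) against 35.7% of all genes (18.0% higher, 17.8% lower). Scaling by library totals gave 1997 higher and 7559 lower genes here, against 3465 and 3427. Under that scaling Peg3 lost its call, at 0.12. Of 44 other imprinted genes 12 were higher in the untagged IPs and 5 lower, the highest named being Magel2 (4.33 ± 0.25), Mkrn3 (1.51 ± 0.09) and Ppp1r9a (1.25 ± 0.09). The experiments differed for Magel2, at 6.29 and 2.38 (adjusted p = 0.00312), and for Ppp1r9a, at 1.82 and 0.67 (adjusted p = 0.000496).

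A list held 56 other imprinted genes, and 45 of them were present in the table and tested for recovery in HA-Tnrc6a cells. Of these, 12 were recovered more and 11 less than from untagged cells, against 29.8% and 32.2% of all genes. Their median log2 difference was -0.02, against -0.10 over all genes tested. The named genes had to pass in both experiments at a mean log2 CPM of at least 1. Those with the largest positive values were the tetraspanin gene Cd81 (2.13 ± 0.08), the noncoding RNA Rian (2.12 ± 0.09) and the ubiquitin ligase gene Mkrn3 (1.91 ± 0.14), and those with the largest negative values were Mirg (-1.16 ± 0.16), Commd1 (-0.90 ± 0.10) and Phlda2 (-0.85 ± 0.10). Adjusted p was 1.62e-07 for Mirg and smaller for the other 5 (edgeR). Rian lies in the same maternally expressed noncoding cluster as Meg3 and Mirg, and the sign of its value was opposite to theirs. None of the 45 had a value as high as Igf2 or H19, the highest of them being Zim1 at 2.14 ± 0.39.

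**Figure D3:**
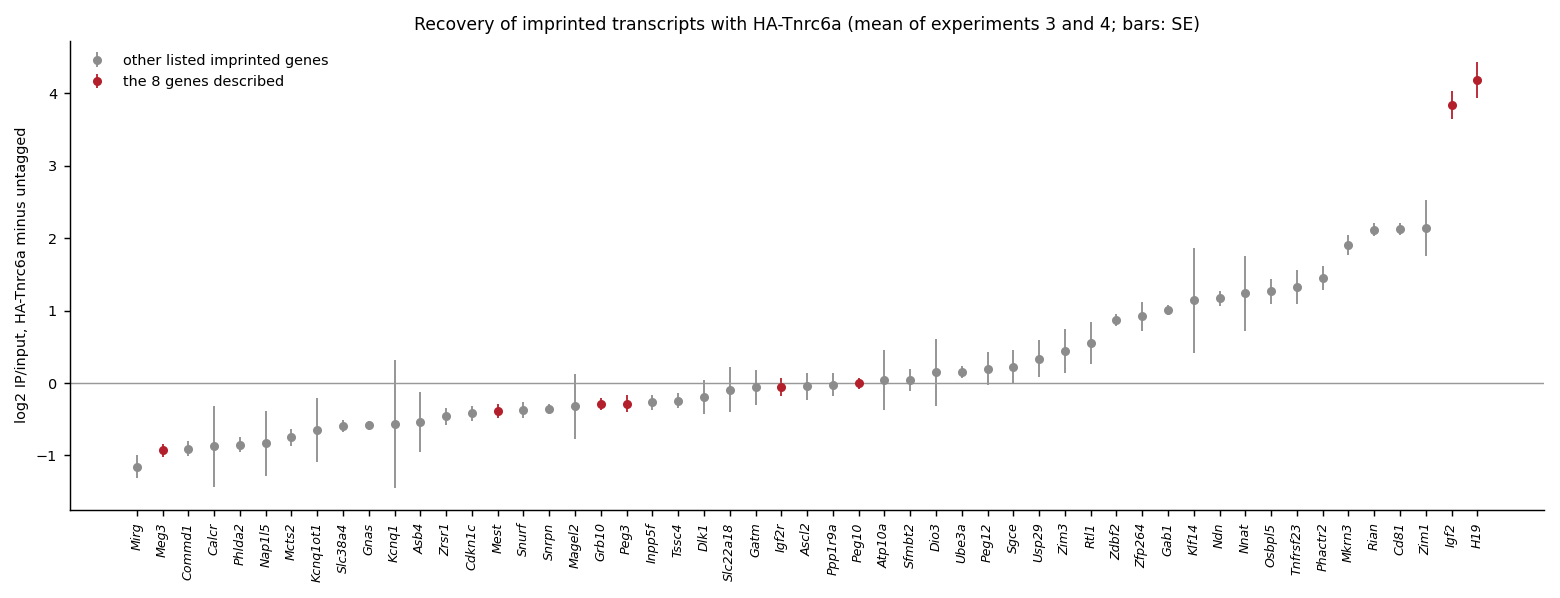
Log2 IP-to-input ratio of HA-Tnrc6a cells less that of untagged cells (y axis, mean of both experiments, bars are SE) for the 8 imprinted genes described (red) and the 45 other listed imprinted genes tested (grey), in order of the value. H19 at 4.19 and Igf2 at 3.84 stand above the rest, which lie between -1.16 and 2.14.

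Genes of the IGF pathway were listed as well, and 18 of 20 were tested. In HA-Tnrc6a cells 9 of the 18 were recovered more than from untagged cells and 2 less, with a median of 0.34, against 29.8% and 32.2% of all genes and a median of -0.10. The higher ones included the RNA-binding protein gene Igf2bp1 (1.87 ± 0.08), the kinase genes Akt1 (1.70 ± 0.09) and Pik3ca (1.69 ± 0.10), and the receptor gene Igf1r (0.41 ± 0.10). The lower ones were Igfbp2 (-0.65 ± 0.16) and Igf2bp2 (-0.32 ± 0.07), and the insulin receptor gene Insr was at 0.00 ± 0.13. Among 17 genes for the upkeep of imprints and DNA methylation, 4 were higher and 9 lower, against the same shares of all genes, with a median of -0.17. They included the dioxygenase gene Tet3 at 2.66 ± 0.17, the methyltransferase gene Dnmt1 at 0.59 ± 0.06, and the imprint-binding factor gene Zfp57 at -0.59 ± 0.06.

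The genes most like H19 were sought by Pearson's r of the 16 group means of log2 CPM, among 10839 genes with a mean log2 CPM of at least 3. They were Zfyve21 (r = 0.979), Glrx5 (r = 0.978) and C9orf72 (r = 0.974). The groups share genotypes and experiments, so r describes these 16 points only. In experiment 3, HA-Tnrc6a inputs held Zfyve21 at 40.9 CPM and the IPs at 159 CPM, a smaller step than that of H19. Igf2 gave r = 0.740, at rank 2196 of the candidates, and Grb10 gave the lowest value of the 8, at -0.640.

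Recovery was next compared between each knockout line and HA-Tnrc6a cells, which asks whether it differs in their absence. H19 stayed recovered in Ago2-/- cells, with IPs at 186, 162 and 184 CPM over inputs at 7.73, 7.60 and 8.43 CPM in experiment 3. In experiment 4 the IPs were at 42.2, 37.9 and 41.7 CPM over inputs at 2.82, 3.31 and 3.25 CPM. The IP-to-input ratio was 22.4 and 12.996, against 15.6 and 11.4 in HA-Tnrc6a cells. The log2 difference was 0.35 ± 0.18 (edgeR adjusted p = 0.171), which among the fits that left out 1 library passed only without replicate 1 of the HA-Tnrc6a IPs of experiment 3 (0.44). The HA-Tnrc6a libraries on which H19 was chosen enter this comparison and those below.

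Igf2 was recovered less in Ago2-/- cells, by a log2 difference of -0.56 ± 0.16 (edgeR adjusted p = 0.0114). Its Ago2-/- IPs were at 23.5, 19.4 and 16.8 CPM in experiment 3, overlapping HA-Tnrc6a IPs at 18.8 to 24.6 CPM. In experiment 4 they were at 18.2, 16.8 and 20.1 CPM, all below HA-Tnrc6a IPs at 42.2 to 54.3 CPM. The difference was -0.16 in experiment 3 (adjusted p = 0.776) and -0.95 in experiment 4 (adjusted p = 0.000527), but the test of the difference between experiments did not pass (adjusted p = 0.542, with 0.195% of all genes passing it). Without replicate 1 of the Ago2-/- inputs of experiment 3 the call was lost, at -0.41.

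Meg3 was also recovered less in Ago2-/- cells, at -0.50 ± 0.08 (edgeR adjusted p = 1.75e-05), with IPs in experiment 4 at 54.5, 62.0 and 58.6 CPM, all below HA-Tnrc6a IPs at 81.7 to 112 CPM. Smaller differences were found for Peg10 at -0.19 ± 0.06 (adjusted p = 0.0268) and Mest at -0.23 ± 0.08 (adjusted p = 0.0353). These 2 calls were lost in 7 and 14 of 24 fits that left out 1 library, and when IPs were compared without inputs (-0.13 and -0.05). Igf2r, Peg3 and Grb10 did not pass, at 0.08 ± 0.15, 0.23 ± 0.10 and -0.03 ± 0.07. Compared without inputs, the Ago2-/- IPs of Peg3 were higher by 0.75 and those of Grb10 by 0.43, as were their inputs, described below. So 4 of 8 were recovered less and none more, against 21.3% of all genes (9.09% higher, 12.3% lower). Of 44 other imprinted genes tested, 2 were recovered more and 5 less, and the rule named Ndn at 0.52 ± 0.10 and Zdbf2 at -0.63 ± 0.09. Those outside the rule, listed after their values were seen, were Cd81 (0.38 ± 0.08), Sgce (-0.84 ± 0.26), Sfmbt2 (-0.43 ± 0.13), Phactr2 (-0.43 ± 0.12) and Gab1 (-0.22 ± 0.06). Of 17 tested IGF pathway genes 2 were recovered more and 4 less, and of 17 imprint-upkeep genes 3 more and 3 less.

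In cells labelled Upf1-/- the recovery of Mest alone passed among the 8, at 0.43 ± 0.08 (edgeR adjusted p = 0.000813), against 4.49% of all genes (2.92% higher, 1.57% lower). The Mest difference was 0.52 in experiment 3 (adjusted p = 0.0172) and 0.34 in experiment 4 (adjusted p = 0.121). With IPs compared without inputs it was 0.09 (adjusted p = 0.3), an average of opposite directions. The Mest IPs were at 25.8 to 29.3 CPM against 16.3 to 19.1 CPM in HA-Tnrc6a cells in experiment 3. In experiment 4 they were at 18.5 to 21.3 against 26.2 to 31.0 CPM. H19 was at -0.08 ± 0.20 (adjusted p = 0.894) and Igf2 at 0.21 ± 0.14 (adjusted p = 0.516). Of 44 other imprinted genes 1 passed, Ndn at 0.47 ± 0.10, named after its value was seen. The level of H19 in these IPs was 94.8, 78.4 and 83.9 CPM in experiment 3, below the HA-Tnrc6a IPs at 169 to 270.3 CPM, and its inputs were at 4.37 to 6.15 against 11.4 to 16.04 CPM. Compared without inputs, the H19 IPs were lower by -0.91, given without a test because H19 was chosen on libraries that include the HA-Tnrc6a IPs. The split over all genes in this comparison moved with the scaling, from 583 higher and 313 lower under TMM to 352 and 315 with RLE size factors and 224 and 778 with library totals. The comparisons of Ago2-/- and Upf1-/- labelled cells share the HA-Tnrc6a libraries.

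Inputs were compared to see how the level of each transcript differed between the lines. In bulk RNA, fewer cells of a type and less RNA per cell cannot be told apart. In HA-Tnrc6a against untagged inputs H19 was at a log2 difference of 0.86 ± 0.12, given without a test, at 11.4 to 16.04 against 6.09 to 7.37 CPM in experiment 3 and 2.534 to 3.56 against 1.501 to 2.528 CPM in experiment 4. Mest was higher by 0.74 ± 0.05 (edgeR adjusted p = 2.51e-11), Igf2r by 0.34 ± 0.05 (adjusted p = 1.46e-05) and Meg3 by 0.22 ± 0.03 (adjusted p = 1.09e-05). With all libraries in 1 fit the Igf2r call was lost (adjusted p = 0.105). Grb10 was lower by -0.17 ± 0.03 (adjusted p = 0.000406). Igf2 was lower on average by -0.39 ± 0.12 (adjusted p = 0.0214), with -0.95 in experiment 3 and 0.17 in experiment 4, and the experiments differed (adjusted p = 0.00592, with 3.40% of all genes passing). The average lost its call in 4 of 12 fits that left out 1 library, among them the fit without the input that stood apart (-0.30). Peg3 and Peg10 did not pass, at 0.04 ± 0.07 and 0.00 ± 0.04. Of the 7 genes other than H19, 5 passed, 3 higher and 2 lower (4 of 7 without that input), against 15.4% of all genes (7.74% higher, 7.67% lower). Of 43 other imprinted genes 8 were higher and 4 lower, and the rule named Zfp264 (1.76 ± 0.14), Mirg (0.44 ± 0.08) and Rian (0.27 ± 0.03) on the higher side and Gab1 (-0.42 ± 0.03) and Gnas (-0.21 ± 0.03) on the lower. Zfp264 was at 2.27 in experiment 3 and 1.25 in experiment 4, which differed (adjusted p = 0.0419).

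Summed levels of markers of other cell types differed between genotypes in the inputs. Of 6 endoderm markers 5 were in the table, and their summed level was 31.7 to 33.9 CPM in HA-Tnrc6a inputs of experiment 3, against 10.1 to 14.6 CPM in untagged, 6.13 to 6.89 CPM in Ago2-/- and 11.8 to 13.9 CPM in Upf1-/- labelled inputs. In experiment 4 the sums were 29.0 to 32.1, 33.3 to 34.5, 6.81 to 7.84 and 45.3 to 48.5 CPM in the same order. H19 inputs of experiment 3 were likewise highest in HA-Tnrc6a cells, whereas in experiment 4 the highest endoderm sums were in Upf1-/- labelled cells, where H19 was at 2.34 to 2.86 CPM. Foxa2 had a mean input level of 0.371 CPM and Afp was not among the genes analysed here. The 5 neural markers summed to 116 to 126 CPM in Ago2-/- inputs and 53.9 to 69.8 CPM in Upf1-/- labelled inputs over both experiments. Most of the neural sum was Tubb3, at a mean input level of 70.1 CPM, while Pax6 was at 0.659 CPM. Of 5 trophoblast markers 3 were in the table, Tfap2c at a mean input level of 65.0 CPM, Krt7 at 1.06 and Gata3 at 0.166. Their sum was 107 to 111 CPM in Ago2-/- inputs and 69.7 to 73.8 CPM in HA-Tnrc6a inputs of experiment 3. In experiment 4 it was 65.0 to 66.2 and 45.9 to 51.5 CPM. In Upf1-/- labelled inputs of experiment 4, 6 mesoderm markers summed to 16.2 to 18.8 CPM, where HA-Tnrc6a inputs had 7.81 to 8.92 CPM. Eomes had the highest mean input level of these markers, at 6.90 CPM, and Mixl1 the next, at 0.832 CPM. The fibroblast list had 6 markers, 4 of them in the table. Those 4 summed to 52.9 to 57.4 CPM in Upf1-/- labelled inputs of experiment 4 and to 35.9 to 36.8 CPM in HA-Tnrc6a inputs. Thy1 had the highest mean input level of the 4, at 25.97 CPM, and Pdgfrb the next. The collagen genes Col1a1 and Col1a2 were at 3.05 and 0.271 CPM. Whether cells of these other types were present, and any part of theirs in the input levels of the 8 genes, was not tested.

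In Ago2-/- inputs, Peg3 was higher than in HA-Tnrc6a inputs by 0.48 ± 0.06 (edgeR adjusted p = 9.31e-09) and Grb10 by 0.42 ± 0.03 (adjusted p = 1.37e-17). Peg3 was at 22.6, 22.7 and 26.5 CPM against 16.3, 18.8 and 20.5 CPM in experiment 3, and at 20.1, 22.1 and 22.2 against 14.2, 14.8 and 13.7 CPM in experiment 4, without overlap in either. Mest was higher by 0.15 ± 0.04 (adjusted p = 0.00435). H19 was lower by -0.40 ± 0.10 (adjusted p = 0.00185), Igf2r by -0.19 ± 0.05 (adjusted p = 0.00571) and Meg3 by -0.08 ± 0.03 (adjusted p = 0.016), a call lost in 4 of 12 fits that left out 1 library. With all libraries in 1 fit the calls of Igf2r, Meg3 and Mest were lost, and that of Meg3 also in each experiment alone. H19 was at -0.82 in experiment 3 and 0.03 in experiment 4, and the experiments differed (adjusted p = 0.00547, with 5.94% of all genes passing). Igf2 was at -0.18 ± 0.13 and Peg10 at 0.02 ± 0.03, neither passing. So 6 of 8 passed, 3 in each direction (5 of the 7 other than H19), against 30.9% of all genes (15.7% higher, 15.2% lower). Of 44 other imprinted genes 6 were higher and 5 lower, and the rule named the thyroid hormone deiodinase gene Dio3 (1.65 ± 0.19), Gab1 (-0.25 ± 0.03) and the amino acid transporter gene Slc38a4 (-0.13 ± 0.03).

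The inputs of cells labelled Upf1-/- differed on average in 7 of the 8, 2 higher and 5 lower, against 58.6% of all genes (29.5% higher, 29.0% lower). Without H19 it was 6 of 7. The 5 lower include Mest, which went in opposite directions in the 2 experiments, as described below. Peg10 had the largest positive difference, at 0.77 ± 0.02 (edgeR adjusted p = 3.93e-30). It was at 208, 213 and 222 CPM against 102, 105 and 106 CPM in experiment 3, and at 439, 417 and 445 against 310, 312 and 294 CPM in experiment 4. Every Upf1-/- labelled input was above the HA-Tnrc6a inputs of its experiment. Meg3 was higher by 0.10 ± 0.03 (adjusted p = 0.0093), a call lost in each experiment alone and with all libraries in 1 fit. H19 was lower by -0.79 ± 0.11 (adjusted p = 2.1e-08), Grb10 by -0.53 ± 0.02 (adjusted p = 1.63e-23), Igf2 by -0.34 ± 0.12 (adjusted p = 0.0129, lost in 2 of 12 fits that left out 1 library), and Igf2r by -0.30 ± 0.07 (adjusted p = 0.00191). The H19 call was lost in experiment 4 alone (-0.23) and that of Igf2 in experiment 3 alone (-0.075). The Igf2r call was lost with all libraries in 1 fit (-0.31). Peg3 was at 0.01 ± 0.06 (adjusted p = 0.873). Grb10 was at 136, 134 and 146 CPM in experiment 3, below the 216, 231 and 234 CPM of HA-Tnrc6a inputs, and at 275 to 283 against 352 to 367 CPM in experiment 4.

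Mest went in opposite directions in the inputs of cells labelled Upf1-/-. It was at 35.3, 31.6 and 36.2 CPM against 29.4, 29.9 and 30.8 CPM in experiment 3, and at 25.5, 26.4 and 27.2 against 46.0, 45.9 and 44.9 CPM in experiment 4. The differences were 0.18 (edgeR adjusted p = 0.0136) and -0.78 (adjusted p = 1.06e-16), and their average of -0.30 ± 0.04 describes neither. The experiments also differed for H19, Peg10 and Grb10 in this comparison, where 11.6% of all genes passed the same test. Among 43 other imprinted genes 10 were higher and 20 lower, against 29.5% and 29.0% of all genes. The named ones were Sgce (1.04 ± 0.14), Sfmbt2 (0.77 ± 0.06) and Peg12 (0.72 ± 0.11) on the higher side, and the Notch-like ligand gene Dlk1 (-1.58 ± 0.15), the cell cycle inhibitor gene Cdkn1c (-1.38 ± 0.07) and Zfp264 (-1.14 ± 0.11) on the lower side. The experiments differed for Cdkn1c, at -0.75 and -2.01 (adjusted p = 1.39e-08), and for Zfp264, at -1.66 and -0.62 (adjusted p = 0.000459). Of 18 IGF pathway genes 6 were higher and 9 lower, and of 17 imprint-upkeep genes 2 were higher and 9 lower.

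**Figure D4:**
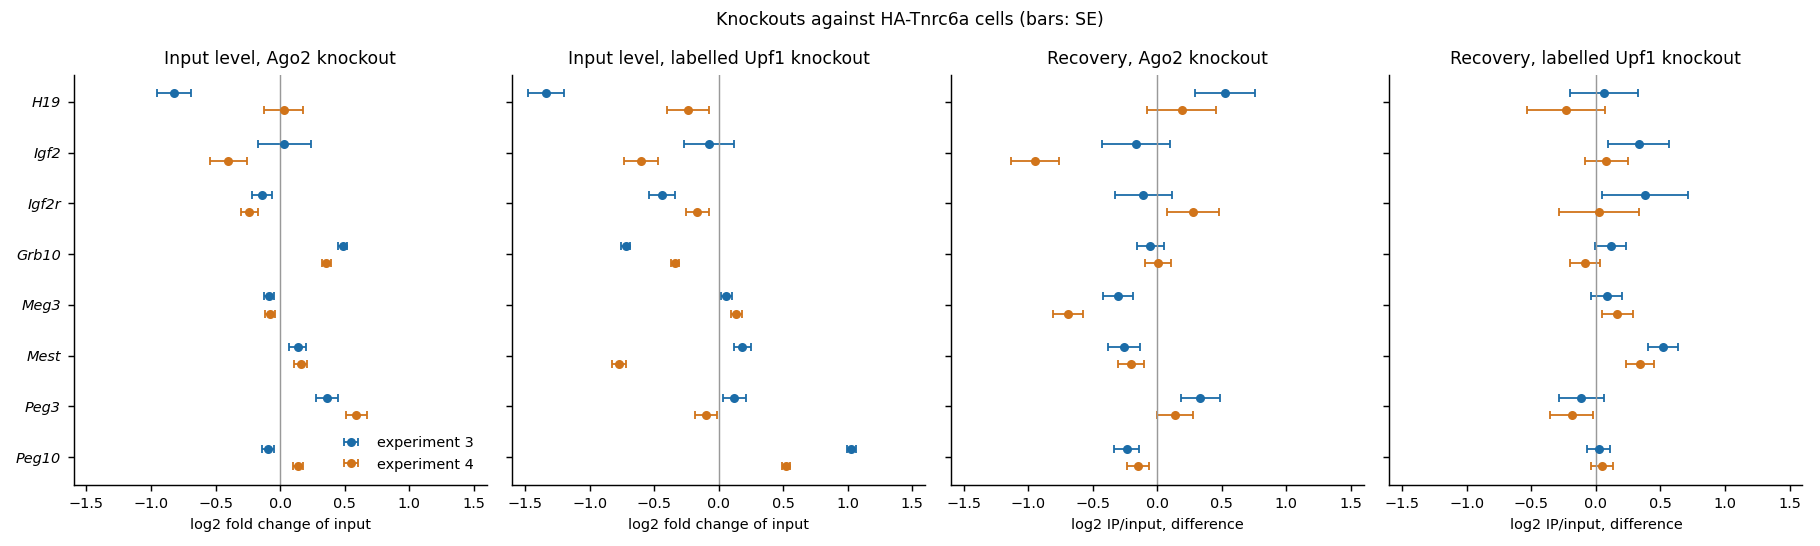
Differences of the Ago2 knockout and of the cells labelled Upf1 knockout from HA-Tnrc6a cells (x axes, log2) for the 8 transcripts, for input levels in the first pair of panels and for the IP-to-input ratio in the second pair, by experiment; bars are SE. Peg10 inputs are higher in cells labelled Upf1 knockout in both experiments (1.03 and 0.52), H19 inputs are lower mainly in experiment 3 (-1.34 against -0.23), and the recovery of Igf2 in the Ago2 knockout is at -0.16 in experiment 3 and -0.95 in experiment 4, which did not differ by the test.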

How the data were processed

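The authors deposited 1 table of raw counts per gene for the 48 libraries. Per the labels' protocols, libraries came from a stranded total RNA kit. The submitters' processing notes name STAR 2.7.3a, bcl2fastq 2.20 and GRCm38/mm10, while the strand setting and annotation are not given in the sources used here. Each gene reached at least 11 counts in some library. Columns numbered 1 to 3 were taken as experiment 3 and those numbered 4 to 6 as experiment 4, which is inferred. Coordinates, neighbours and microRNA sequences are from RefSeq on GRCm38.p6.

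Counts were tested with edgeR 4.0.16 (R 4.3.3): TMM, filterByExpr with a minimum count of 10, and the robust quasi-likelihood fit across all genes of the groups compared. Contrasts were averaged over both experiments, two-sided, with Benjamini-Hochberg adjustment over all genes and a threshold of 0.05. The SE is the log2 value divided by the square root of F. Log2 CPM for likeness to H19 used a prior count of 2. The scripts were tested on simulated data. Depth limits precision by counting error at the least, since molecules amplified by PCR were not told apart.

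The members, lists and rule for named genes were chosen with earlier results of these data known. The tests first planned for H19 in untagged IP against input and in HA-Tnrc6a against untagged inputs are left out, since both are parts of the value it was chosen on. The rule names the 8 genes everywhere, the 3 genes most like H19, and up to 3 other imprinted genes per direction with the largest change past the threshold in both experiments. Genes of the IGF and imprint-upkeep lists, the neighbours and Zim1 were named after their values were seen. Alternatives were RLE size factors, library totals, no count filter, DESeq2 1.42.0, each experiment alone, all libraries in 1 fit, IPs without inputs, a replicate block, and leaving out each library.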

Additional observations from a re-analysis of the deposited data

Results flagged for a closer look

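The 9 values here differed between experiments 3 and 4 by the interaction test of the same edgeR fit, adjusted over all genes. They are given as experiment 4 less experiment 3, on the log2 scale, and no cause was tested. In the enrichment of Ago2-/- cells over untagged cells, Igf2r differed by 1.23 ± 0.30 (adjusted p = 0.018; -0.58 in experiment 3 and 0.65 in experiment 4) and Meg3 by -0.69 ± 0.17 (adjusted p = 0.00971; -1.07 and -1.76). In the inputs of HA-Tnrc6a against untagged cells, Igf2 differed by 1.12 ± 0.23 (adjusted p = 0.00592; -0.95 and 0.17). In Ago2-/- against HA-Tnrc6a inputs, H19 differed by 0.85 ± 0.20 (adjusted p = 0.00547; -0.82 and 0.03) and Peg10 by 0.23 ± 0.06 (adjusted p = 0.0134; -0.09 and 0.14).

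The inputs of cells labelled Upf1-/- gave the other 4. Mest differed by -0.96 ± 0.08 (adjusted p = 2.57e-12), from 0.18 to -0.78, and the libraries of the 2 genotypes did not overlap in either experiment. H19 differed by 1.10 ± 0.22 (adjusted p = 0.000261), from -1.34 to -0.23. Peg10 differed by -0.51 ± 0.05 (adjusted p = 6.38e-11), from 1.03 to 0.52, and Grb10 by 0.38 ± 0.05 (adjusted p = 1.13e-07), from -0.72 to -0.34, both with the same direction in each experiment.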

How the results depend on the processing

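Of 41 member results past the threshold, all 41 kept direction and call with RLE size factors, without a count filter, with DESeq2 and with a replicate block. Library totals lost 2 calls, 1 fit of all 48 libraries 7, experiment 4 alone 6 with 2 reversals, and experiment 3 alone, the shallower, 19 with 1 reversal. IPs compared without inputs lost 4 of 19 with 2 reversals. Where not stated otherwise, the cause was not tested. Same-numbered replicates shared some deviation, as 37 of 48 samples were closest to their own number. It was small and not seen in every pair (mean correlation 0.0680, 57 of 168 pairs over 0.1). The main fits had no replicate block. The block added 1 call, Peg10 in untagged IP against input (-0.11), and changed no other member call.

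The count of the 8 genes (7, without H19, for enrichment, untagged IP against input and HA-Tnrc6a inputs) past the threshold moved as follows. It was 3 in experiment 3 alone for HA-Tnrc6a enrichment, 1 for untagged IP against input and 3 for Ago2-/- inputs, the last also in the fit of all libraries. For recovery in Ago2-/- cells it was 0 in experiment 3 alone and 2 in experiment 4 alone, and 2 to 5 when 1 library was left out. For recovery in Upf1-/- labelled cells it was 0 in each experiment alone and 4 without inputs, with H19 among the 4. Over all genes, 4267 passed for Ago2-/- recovery, against 1623 in experiment 3 alone and 7482 without inputs. For Upf1-/- labelled recovery 896 passed, against 162 and 384 in experiments 3 and 4 alone and 8805 without inputs, and the split was 349 higher and 385 lower without a filter and 257 and 447 with all libraries. For HA-Tnrc6a inputs 2990 passed, against 652 in experiment 3 alone and 1937 with all libraries. For Ago2-/- inputs 6065 passed, against 3382 and 3902, and for untagged IP against input 6892, against 1972 in experiment 3 alone. Library totals moved the median of all genes from -0.10 to -0.25 in HA-Tnrc6a, -0.07 to -0.22 in Ago2-/- and -0.06 to -0.32 in Upf1-/- labelled enrichment, and from -0.03 to -0.20 in untagged IP against input.

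These values turned sign. With library totals, Igf2r was -0.11 (Ago2-/- enrichment), -0.10 (Upf1-/- labelled enrichment) and -0.10 (untagged IP), Meg3 -0.13 (untagged IP), Peg10 -0.22 and Mest -0.20 (Upf1-/- labelled enrichment), and Peg10 -0.055 and Grb10 -0.075 (Upf1-/- labelled recovery). With RLE size factors, Peg10 was -0.016 (Upf1-/- labelled enrichment) and Grb10 -0.00088 (Upf1-/- labelled recovery). With DESeq2 they were -0.016 and -0.00082, and Peg10 was -0.00070 in HA-Tnrc6a inputs. With no filter Grb10 was -0.014 (Upf1-/- labelled recovery). With all libraries in 1 fit, Peg10 was -0.036 and Mest -0.015 (Upf1-/- labelled enrichment), and Peg10 -0.019 and Grb10 -0.037 (its recovery).

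In experiment 3 alone, Peg10 was 0.11 (HA-Tnrc6a enrichment), Igf2r -0.54 and Peg3 0.16 (Ago2-/- enrichment), Igf2r -0.19 and Peg10 -0.045 (Upf1-/- labelled enrichment), Igf2r -0.13 (Ago2-/- recovery), Meg3 -0.0057 and Peg10 -0.068 (Upf1-/- labelled recovery), Peg10 -0.087 (HA-Tnrc6a inputs), Igf2 0.023 and Peg10 -0.092 (Ago2-/- inputs) and Mest 0.19 (Upf1-/- labelled inputs). In experiment 4 alone, Igf2r was 0.32 (HA-Tnrc6a enrichment), Peg10 -0.086 and Mest -0.098 (Upf1-/- labelled enrichment), Grb10 0.014 (Ago2-/- recovery) and -0.049 (Upf1-/- labelled recovery), Igf2 0.17 and Peg3 -0.063 (HA-Tnrc6a inputs), H19 0.032 (Ago2-/- inputs) and Peg3 -0.097 (Upf1-/- labelled inputs). Without inputs, Igf2r was 0.30, Peg10 0.011 and Mest 0.37 (HA-Tnrc6a enrichment), Peg3 0.51 and Mest 0.31 (Ago2-/- enrichment), H19 -0.0072, Igf2r -0.072 and Grb10 0.43 (Ago2-/- recovery), and Igf2 -0.17, Igf2r -0.14 and Grb10 -0.55 (Upf1-/- labelled recovery).

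Leaving out 1 library turned the sign only of values that had not passed. Ranges were -0.13 to 0.021 for Igf2r and -0.039 to 0.029 for Peg10 (HA-Tnrc6a enrichment), -0.046 to 0.13 for Igf2r and -0.15 to 0.011 for Peg3 (Ago2-/- enrichment), -0.084 to 0.095 for Peg10 and -0.083 to 0.11 for Mest (Upf1-/- labelled enrichment), -0.062 to 0.018 for Grb10 (Ago2-/- recovery), -0.075 to 0.039 for Grb10 and -0.028 to 0.047 for Peg10 (Upf1-/- labelled recovery), -0.032 to 0.024 for Peg10 and -0.0043 to 0.080 for Peg3 (HA-Tnrc6a inputs), -0.0050 to 0.053 for Peg10 (Ago2-/- inputs), -0.029 to 0.055 for Peg3 (Upf1-/- labelled inputs) and -0.010 to 0.12 for Igf2r (untagged IP against input). Calls were gained for Peg3 recovery without replicate 2 of the Ago2-/- IPs of experiment 3 (0.28) and for Peg10 in untagged cells without input replicate 1 of experiment 3 (-0.14).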
